A study of Mus musculus with 31 samples.

Results

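Inflammatory mouse Th17 cells that were cultured with dexamethasone were compared with and without added TGF-β1. The comparison used 6 of the 12 in vitro libraries and of the 31 libraries of the whole series, chosen by their labels: 3 labelled TG+De-2d (TGF-β1 and dexamethasone) and 3 labelled Dex-2d (dexamethasone alone). All genes of the table were examined. The other 6 in vitro libraries, 3 without addition and 3 with TGF-β1 alone, served to set the response to TGF-β1 without dexamethasone beside it. The study asks how glucocorticoid production and sensing bear on the state of Th17 cells.

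All 12 libraries came from wild-type C57/B6 T cells of spleen and draining lymph nodes, turned into inflammatory Th17 cells in culture. They were then kept for 2 days with dexamethasone, with TGF-β1, with both or with neither, and 2000 live Th17 cells were sorted for each library. Doses, the age of the mice and whether cells of several mice were pooled are not given in the sources used here. The cells had no host or tissue around them, and 1 time point was measured. Because the labels do not state whether the libraries of a group came from separate cultures, p-values measure only the spread between these libraries, which may be technical.

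TGF-β1 is a cytokine that binds a pair of receptor kinases at the cell surface. The receptors phosphorylate Smad proteins, which enter the nucleus with Smad4 and raise or lower the transcription of target genes, among them inhibitors of the pathway itself. In T cells TGF-β1 is known to restrain Th1 and Th2 differentiation and, with interleukin 6, to drive the Th17 program. Th17 cells made without it and with interleukin 23 are the inflammatory form, and cells made with TGF-β1 and interleukin 6 the homeostatic one. Dexamethasone is a synthetic steroid that activates the glucocorticoid receptor, a transcription factor that raises genes such as Tsc22d3 and lowers many cytokine genes.

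The promoters of 3 genes are shown as a description, and all 3 genes rose. Il9 had the steepest rise among the named genes and Lta the smallest p-value of all genes. Nr4a3 had the smallest p-value for a difference between the responses with and without dexamethasone. For Lilrb4a, which had the smallest p-value among the named genes that fell, no window was available. Each line gives the 250 bases before the gene's start as annotated by RefSeq on GRCm38.p6, 5′ to 3′ on the strand of the gene. Capitals mark CAGAC, a core sequence that Smad proteins bind, and TGANTCA, the core that AP-1 factors bind, each searched on both strands. In the Il9 window one of each was found, and they overlap in the run TGACTCAGAC. The Il9 window lies at chr13:56482258-56482507 on the minus strand, the Lta window at chr17:35205352-35205601 on the minus strand and the Nr4a3 window at chr4:48045055-48045304 on the plus strand. In the GENCODE M21 annotation Nr4a3 starts earlier, at 48045153. By that start the later part of its window, with both CAGAC, lies inside the gene.
Il9: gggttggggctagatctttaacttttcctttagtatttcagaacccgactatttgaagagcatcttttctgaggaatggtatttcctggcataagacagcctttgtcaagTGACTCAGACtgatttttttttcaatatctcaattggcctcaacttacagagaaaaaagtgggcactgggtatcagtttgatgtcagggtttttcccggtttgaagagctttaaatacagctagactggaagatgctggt
Lta: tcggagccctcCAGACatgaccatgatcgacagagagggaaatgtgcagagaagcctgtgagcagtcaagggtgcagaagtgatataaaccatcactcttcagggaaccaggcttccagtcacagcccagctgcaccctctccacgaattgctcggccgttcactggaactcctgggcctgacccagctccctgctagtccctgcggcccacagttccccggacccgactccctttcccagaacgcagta
Nr4a3: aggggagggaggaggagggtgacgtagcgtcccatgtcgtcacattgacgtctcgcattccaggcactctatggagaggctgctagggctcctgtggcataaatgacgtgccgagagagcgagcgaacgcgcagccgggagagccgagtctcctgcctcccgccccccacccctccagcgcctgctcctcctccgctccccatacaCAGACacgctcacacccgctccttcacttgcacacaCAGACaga
CAGAC stood in 42.2% of all 32851 such windows and TGANTCA in 6.75%. Of windows of tested genes, 40.5% held CAGAC and 4.22% TGANTCA. The 149 windows found for genes that rose held CAGAC in 49.0% and TGANTCA in 10.1%, and the 105 windows found for genes that fell held them in 41.0% and 12.4%. These shares are a description of letters and show no binding.

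The 6 libraries held 2821388 to 4291149 counts and 14156 to 15027 genes with a count, and 3 counts corresponded to 0.632 to 1.05 CPM, edgeR's counts scaled to library size. A group of 15 abundant predicted genes took 11.7% of the counts of TGF-β1 + Dex replicate 3 and 30.8% of those of replicate 2, the lowest and the highest share of the 12 libraries. The sum of 15 T cell markers lay between 3888 and 4023 CPM with dexamethasone and between 3942 and 3959 CPM after TGF-β1 was added. Markers of 5 other cell types were low or shared with T cells. Of 20 myeloid markers, 8 were at 0, among them Csf1r, Itgam and C1qa, and the list summed to 253 to 293 CPM with dexamethasone and 253 to 323 CPM with both agents, mostly through Cst3. Of 10 neutrophil markers, 7 were at 0, including S100a8, and the sum was 4.65 to 6.18 CPM against 2.74 to 4.76 CPM. Of 10 B cell markers, 3 were at 0, including Cd22 and Blk, and the sum was 24.1 to 31.9 CPM against 26.7 to 38.8 CPM. Of 12 markers of NK and CD8 T cells, 6 were at 0, including Cd8a and Ncr1, with 24.7 to 31.5 CPM against 17.0 to 30.8 CPM. Of 12 dendritic cell markers, Itgax and Cd209a were at 0, and their sum of 1081 to 1140 CPM against 1483 to 1548 CPM was led by Ccr7, which T cells also express.

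Adding TGF-β1 to dexamethasone raised the cytokine gene Il9, the cysteine protease gene Ctsw, the water and glycerol channel gene Aqp3, the protease inhibitor gene Timp1, the Th17 chemokine receptor gene Ccr6 and the lymphotoxin gene Lta. It lowered the granule protease gene Gzmb, the inhibitory receptor genes Lilrb4a and Tigit, and the type 2 genes Il4 and Gata3. The call on Gata3 was lost in 3 of the 12 fits that left out a library. Of 10332 genes tested, 271 (2.62%) passed the threshold of 0.05 on the Benjamini-Hochberg adjusted p of edgeR's quasi-likelihood test, 151 higher (1.46%) and 120 lower (1.16%). At least 2-fold changes were seen in 53 genes that rose and 44 that fell, together 0.939% of the genes tested, and at least 4-fold changes in 17 and 5. The count was lower without single libraries: it was 152 without Dex replicate 2, 158 without Dex replicate 3, 155 without TGF-β1 + Dex replicate 1 and 166 without TGF-β1 + Dex replicate 3, and with the 6 libraries fitted alone it was 185. In such bulk samples fewer cells of a type and less RNA per cell cannot be told apart.

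Il9 encodes interleukin 9, a cytokine of Th9 and some Th17 cells. Its level was 4.94, 1.64 and 4.23 CPM in the 3 Dex libraries and 206, 132 and 172 CPM in the 3 with TGF-β1 added. Every library with both agents stood far above every Dex library, and replicate 2 was the lowest in every group, also in those without dexamethasone. The log2 fold change was 5.58 ± 0.54 (SE, n = 3 per group), about 47.9-fold, with an edgeR adjusted p of 0.000279. Untreated cells had 46.5, 17.4 and 41.9 CPM, so the Dex libraries were the lowest of the 4 groups, and cells with TGF-β1 alone had 377, 171 and 353 CPM. Without dexamethasone the log2 fold change for TGF-β1 was 3.10 ± 0.38 (edgeR adjusted p = 0.00116). The difference between the responses with and without dexamethasone, 2.48 ± 0.73 on the log2 scale, did not pass (edgeR adjusted p = 0.746), though with the replicate number as a term the adjusted p was 0.0325.

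Ctsw, which encodes a cysteine protease of cytotoxic lymphocytes, had 2.47, 5.20 and 3.25 CPM with dexamethasone and 54.1, 53.9 and 49.1 CPM with both agents. The groups were clearly apart, with a log2 fold change of 3.81 ± 0.26 (edgeR adjusted p = 5.31e-06). Aqp3, the channel gene, had 2.78, 3.56 and 5.85 CPM in the Dex libraries and 41.8, 37.4 and 40.0 CPM after TGF-β1 was added, a log2 fold change of 3.29 ± 0.26. Timp1 encodes a secreted inhibitor of matrix metalloproteinases. Its level moved from 102, 72.8 and 69.9 CPM to 505, 338 and 396 CPM, a log2 fold change of 2.34 ± 0.18, and Aqp3 and Timp1 had the same edgeR adjusted p of 1.73e-05. For all 3 genes the untreated cells were close to the Dex libraries and the cells with TGF-β1 alone close to those with both agents. Untreated cells had 6.27 ± 2.93 CPM of Ctsw, 2.43 ± 1.07 CPM of Aqp3 and 94.5 ± 8.67 CPM of Timp1 (SD, n = 3).

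**Figure D1:**
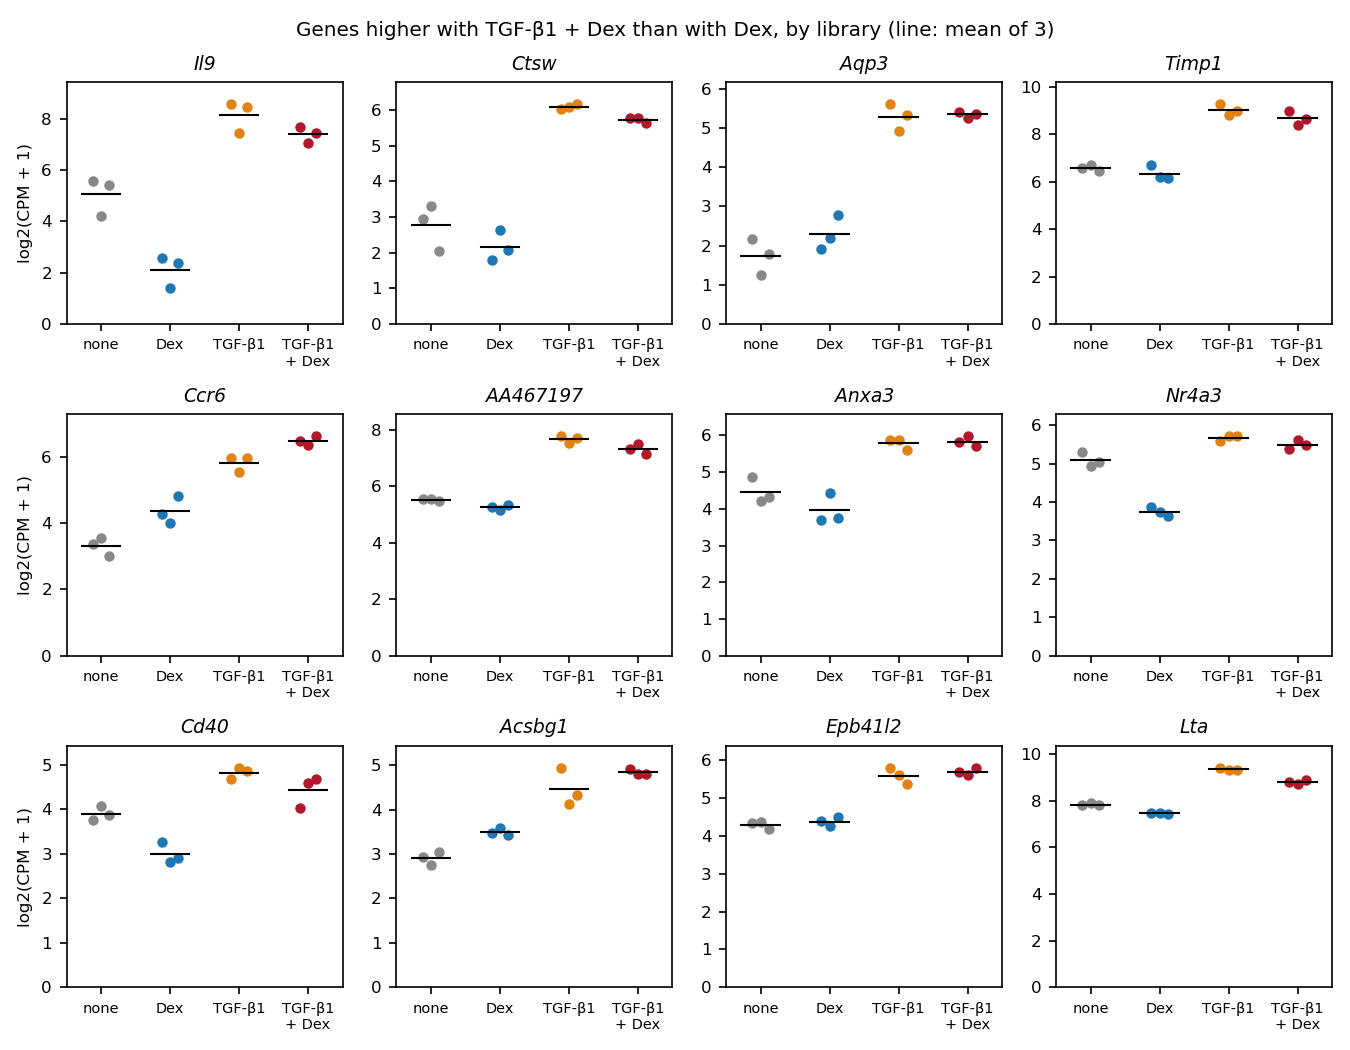
Level, as log2(CPM + 1), of the 12 named genes that were higher with TGF-β1 + Dex than with Dex, in the 3 libraries of each of 4 groups (points) with the mean of the 3 log2 values (line). In every panel the 3 TGF-β1 + Dex points lie above the 3 Dex points, and in Il9 and Nr4a3 the Dex points are the lowest of the 4 groups.

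Ccr6, the receptor for the chemokine CCL20 and a marker of Th17 cells, had 18.5, 15.1 and 27.3 CPM with dexamethasone and 89.4, 81.5 and 98.3 CPM with both agents. These groups did not overlap, and the log2 fold change was 2.16 ± 0.19 (edgeR adjusted p = 4.34e-05). Here TGF-β1 + Dex was the highest of the 4 groups: cells with TGF-β1 alone had 61.6, 46.0 and 62.3 CPM and untreated cells 9.45, 10.6 and 7.06 CPM. Lta encodes lymphotoxin α, a member of the TNF family. Its 176, 175 and 170 CPM rose to 444, 413 and 463 CPM, and the small spread gave it the smallest p-value of all genes, with a log2 fold change of 1.34 ± 0.06 (edgeR adjusted p = 7.78e-08). Ltb, its partner in the membrane-bound lymphotoxin complex, rose by a log2 fold change of 0.28 ± 0.06, from 296, 291 and 310 CPM to 393, 351 and 348 CPM (edgeR adjusted p = 0.0203). The call on Ltb was lost without Dex replicate 1 (adjusted p = 0.0751), Dex replicate 2 (0.0886) or TGF-β1 + Dex replicate 1 (0.0814), and with the 6 libraries fitted alone (0.0847).

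Nr4a3 encodes a nuclear receptor that is switched on soon after T cell receptor stimulation. Its level was 13.6, 12.3 and 11.4 CPM with dexamethasone and 40.5, 47.6 and 43.8 CPM with both agents, a log2 fold change of 1.82 ± 0.13 (edgeR adjusted p = 6.15e-06). The untreated cells, at 38.1, 29.7 and 32.1 CPM, stood close to the cells with both agents, and those with TGF-β1 alone had 46.8, 51.5 and 51.4 CPM. Its response to TGF-β1 was larger with dexamethasone by 1.23 ± 0.17 on the log2 scale. That difference had the smallest p-value of all genes but did not pass in edgeR (adjusted p = 0.0978), whereas it passed with DESeq2 (0.0209) and in edgeR without the low-count filter (0.0142).

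Of the remaining named genes that rose, Anxa3, an annexin that binds phospholipids, had a log2 fold change of 1.88 ± 0.21 and AA467197 one of 2.10 ± 0.11. Cd40, a receptor of the TNF receptor family, rose from 8.64, 6.02 and 6.50 CPM to 15.3, 23.1 and 24.6 CPM (1.59 ± 0.21). Acsbg1, an acyl-CoA synthetase, rose by 1.42 ± 0.20 and Epb41l2, a protein of the membrane skeleton, by 1.37 ± 0.13 on the log2 scale. All 5 had edgeR adjusted p-values of 0.00165 or lower, and none lost its call when any 1 of the 12 libraries was left out.

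Gzmb, which encodes the cytotoxic protease granzyme B, led the lower genes by level. It had 259, 390 and 292 CPM in the Dex libraries and 68.7, 124 and 108 CPM after TGF-β1 was added, without overlap. Replicate 2 was the highest in every group, also in those without dexamethasone. The log2 fold change was -1.65 ± 0.27 (edgeR adjusted p = 0.00759), and the call was lost without the low-count filter (0.0585). Untreated cells had 669, 707 and 590 CPM and cells with TGF-β1 alone 159, 309 and 180 CPM, so the 3 libraries with both agents were the lowest of the 12.

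Lilrb4a, an inhibitory immunoglobulin-like receptor, had 155, 148 and 159 CPM with dexamethasone and 42.9, 54.6 and 47.4 CPM with both agents. The log2 fold change was -1.67 ± 0.10 (edgeR adjusted p = 1.14e-06). The neighbouring gene Lilr4b moved alike, from 111, 107 and 108 CPM to 27.5, 32.9 and 35.4 CPM, but the pair is so similar in sequence that reads may have been split between them. Tigit, an inhibitory receptor that binds the poliovirus receptor, fell from 81.8, 104 and 92.3 CPM to 29.9, 40.6 and 30.7 CPM, a log2 fold change of -1.47 ± 0.13 (edgeR adjusted p = 3.30e-05). In each of these 3 genes the untreated cells were near the Dex libraries and the cells with TGF-β1 alone near those with both agents.

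Ramp3, an accessory protein of calcitonin-family receptors, had a different order. The Dex libraries, at 47.2, 56.4 and 50.1 CPM, were the highest of the 12, and the libraries with both agents had 10.5, 20.6 and 17.3 CPM, overlapping the untreated cells at 10.1, 20.7 and 14.6 CPM. The log2 fold change was -1.66 ± 0.23 (edgeR adjusted p = 0.00156). Serpinb6b, an inhibitor of serine proteases, fell from 83.6, 96.6 and 86.5 CPM to 30.6, 31.5 and 17.5 CPM (-1.78 ± 0.21). Its groups were separate, with an edgeR adjusted p of 0.000495.

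**Figure D2:**
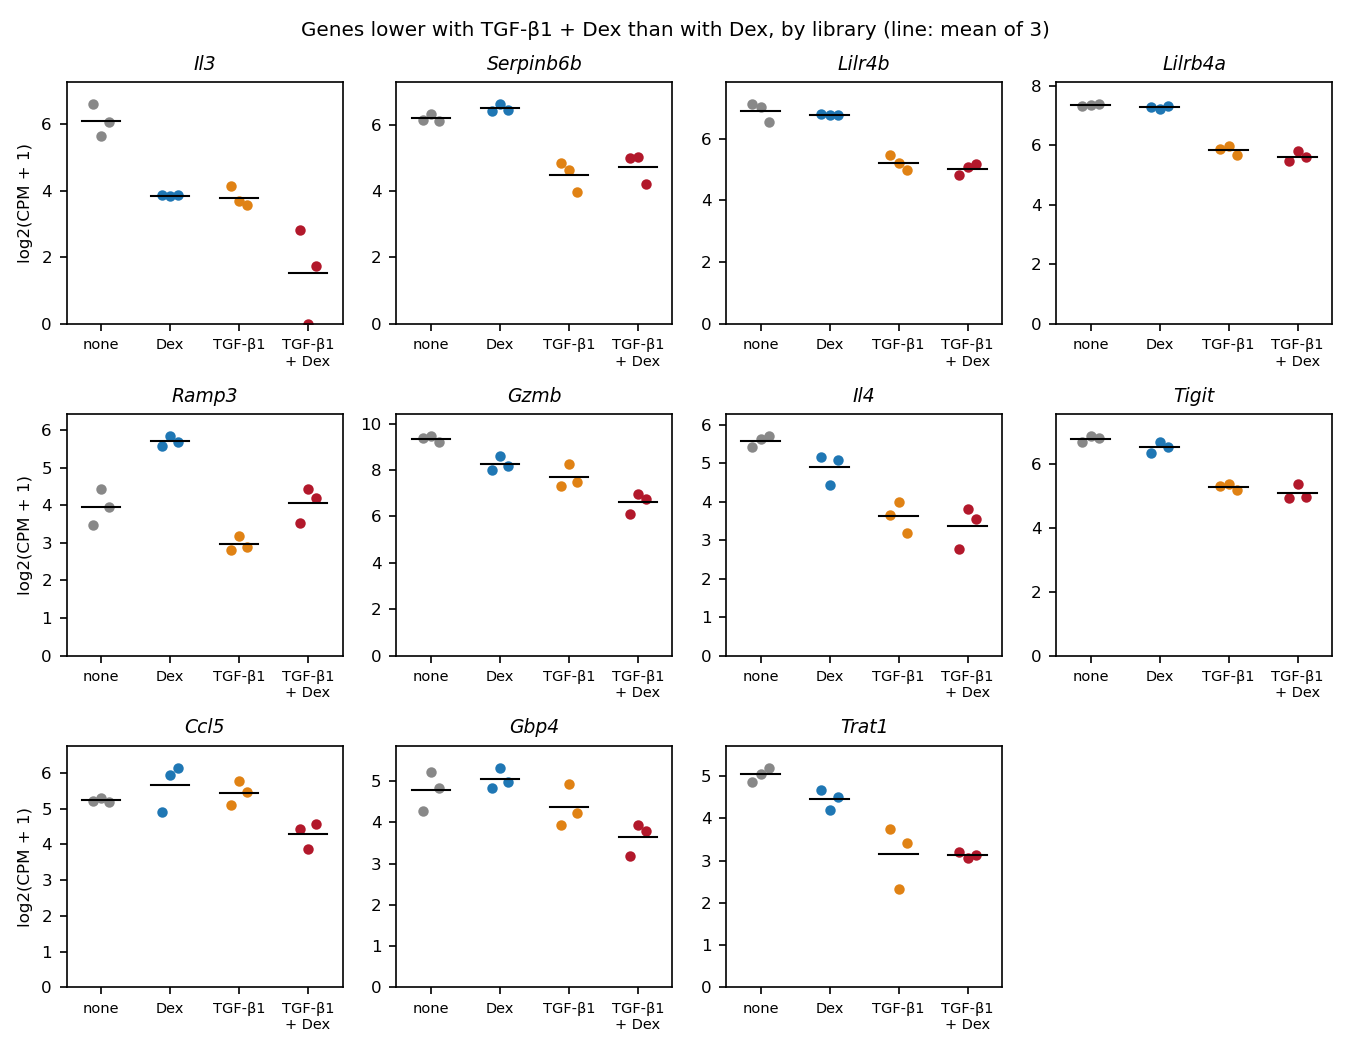
Level, as log2(CPM + 1), of 11 named genes that were lower with TGF-β1 + Dex than with Dex, in the 3 libraries of each of 4 groups (points) with the mean of the 3 log2 values (line). In every panel the 3 TGF-β1 + Dex points lie below the 3 Dex points, and in Ramp3 the 3 Dex points are the highest of the 12.

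The calls on 3 further named genes that fell depended on single libraries. Il3, a growth factor for myeloid cells, had 13.6, 13.4 and 13.7 CPM with dexamethasone and 6.12, 0 and 2.32 CPM with both agents, against 96.2, 49.3 and 66.5 CPM in untreated cells. Its log2 fold change of -2.28 ± 0.54 had an edgeR adjusted p of 0.0478, which rose to between 0.0569 and 0.201 without any 1 of 9 libraries, namely those other than Ctrl replicates 1 and 2 and TGF-β1 + Dex replicate 1, to 0.219 without the low-count filter, to 0.149 with limma voom and to 0.138 with the 6 libraries alone. Its log2 fold change moved to -3.22 without TGF-β1 + Dex replicate 1 and to -1.80 without TGF-β1 + Dex replicate 2, the library at 0. Gbp4, an interferon-inducible GTPase with close paralogs, fell from 27.5, 39.1 and 30.6 CPM to 8.16, 14.3 and 12.8 CPM (log2 fold change -1.45 ± 0.30, edgeR adjusted p = 0.0228). Its call was lost without Dex replicate 2 (0.106), Dex replicate 3 (0.0610), TGF-β1 + Dex replicate 1 (0.0962) or replicate 3 (0.0772), and without the low-count filter (0.0735). Trat1, an adaptor of the T cell receptor, fell by 1.45 ± 0.28 on the log2 scale, from 24.7, 17.5 and 21.8 CPM to 8.16, 7.35 and 7.79 CPM (edgeR adjusted p = 0.0136), and lost its call without Dex replicate 1 (0.0538) or TGF-β1 + Dex replicate 2 (0.0517) or 3 (0.0649).

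Ccl5, a chemokine that attracts T cells and monocytes, had 29.0, 60.2 and 69.9 CPM with dexamethasone and 20.4, 13.6 and 22.7 CPM with both agents. The groups were separate but the Dex libraries differed widely among themselves. Its log2 fold change was -1.46 ± 0.29 (edgeR adjusted p = 0.0190), and the call was lost without Dex replicate 2 (0.0824) or 3 (0.0772), without TGF-β1 + Dex replicate 1 (0.0655) or 2 (0.0726), without the low-count filter (0.108), with limma voom (0.0566) and with the 6 libraries alone (0.0961). Without dexamethasone the response had the other sign, 0.25 ± 0.28 (edgeR adjusted p = 0.743), from 36.4, 38.7 and 35.5 CPM to 33.6, 53.8 and 43.3 CPM. The difference of -1.71 ± 0.40 between the responses did not pass in edgeR (adjusted p = 0.740) and passed with DESeq2 (0.0322).

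The response to TGF-β1 was then set beside that of cells without dexamethasone, where 340 of the 10332 genes (3.29%) passed, 199 higher (1.93%) and 141 lower (1.36%), with 1.15% at least 2-fold changed. That count was 226 without Ctrl replicate 1 and 219 without Ctrl replicate 3 or TGF replicate 1. The pair of comparisons shares no library, though the members of each list were chosen by 1 of them. Of the 271 genes called with dexamethasone, 261 had the same sign without it and 10 the opposite sign. A total of 170 were also called without dexamethasone, which is 62.7% of the 271 and 50% of the 340. The median size of the log2 fold change of the 271 genes was 0.74 with dexamethasone and, in the same direction, 0.59 without it. For the 340 genes the order was turned, with 0.73 without and 0.54 with dexamethasone, so in each case the comparison that chose the genes had the larger median. Across all 10332 genes the log2 fold changes had a Pearson r of 0.28, a description across genes, which are not independent replicates.

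**Figure D3:**
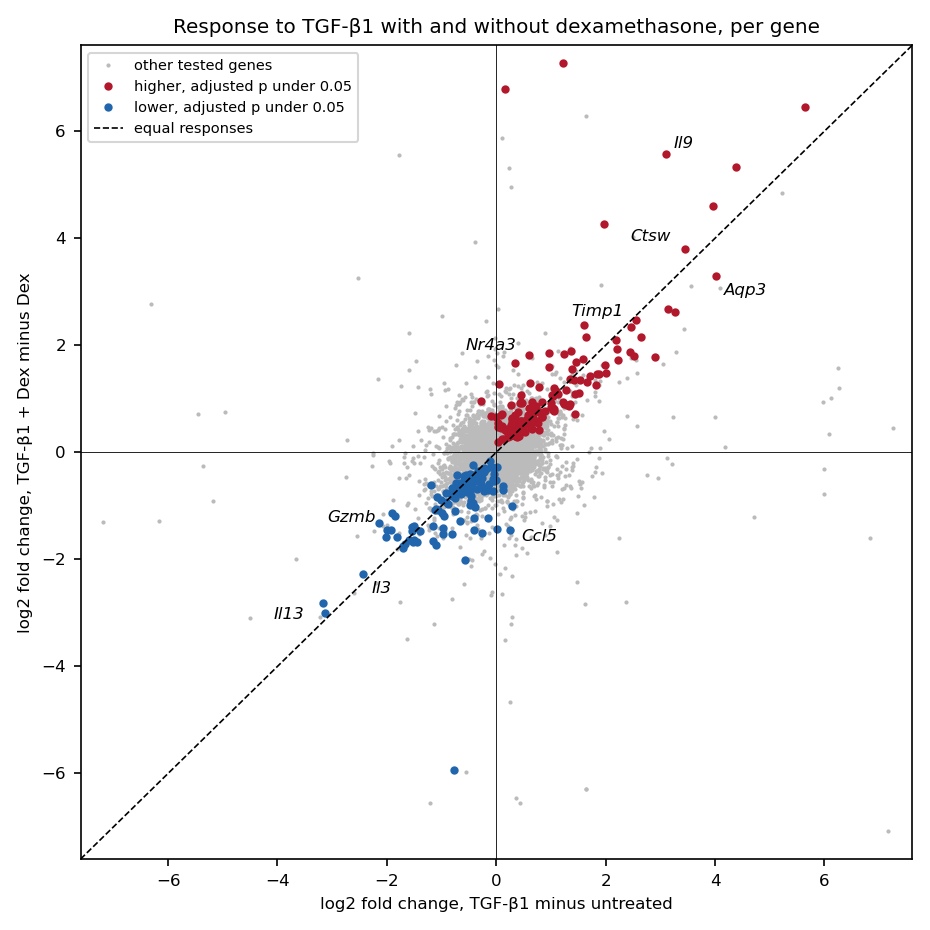
Log2 fold change for TGF-β1 in untreated cells (x axis) and in cells with dexamethasone (y axis) for each tested gene (points), with genes that passed in the comparison with dexamethasone in colour. Of the 271 coloured genes 261 share their sign on both axes, Il9 and Nr4a3 lie above the dashed line of equal responses, and 5 genes lie outside the axes.

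No gene (0%) passed the test of the difference between the responses with edgeR, with 552 of the 10332 genes at an unadjusted p under 0.05. That is near the share of 0.05 that would fall there with no difference in any gene. DESeq2 called 6 genes, limma voom 0 and edgeR without the low-count filter 4. The 6 were Nr4a3, Ccl5, C1qtnf12, Agrp, Rpl35 and AC144852.1, and the 4 were Nr4a3 and the predicted genes Gm49342, Gm45620 and Gm48715. A gene called in only 1 of the comparisons is therefore not shown to respond differently. Of the 10 genes of opposite sign, Neb, which encodes the muscle protein nebulin, was named after the values were seen. It had 29.1 ± 3.03 CPM in the Dex libraries and 18.8 ± 1.48 CPM with both agents (SD, n = 3). The log2 fold change was -0.63 ± 0.15 (edgeR adjusted p = 0.0490). Untreated cells had 4.63 ± 1.27 CPM and cells with TGF-β1 alone 5.14 ± 0.566 CPM. That change of 0.13 ± 0.23 on the log2 scale did not pass (edgeR adjusted p = 0.905). The difference between the responses, -0.76 ± 0.28, did not pass either (edgeR adjusted p = 0.849).

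Relative to untreated cells, the Dex means of these genes lay on either side. Of the 151 genes that rose when TGF-β1 was added, the Dex mean was below the untreated mean in 94 and above it in 57, and the highest of the 4 group means was that of both agents in 78 and that of TGF-β1 alone in 73. Of the 120 genes that fell, the Dex mean was above the untreated mean in 60 and below it in 60. The lowest of the 4 means was that of both agents in 83 of the 120 genes and that of TGF-β1 alone in 36. These counts share the Dex libraries with the comparison that chose the genes and are given without a test.

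The genes were also grouped into 40 lists with 521 genes, of which 375 were tested, and 39 rose and 25 fell. Over all 10332 genes tested the share called was 2.62%, which stands beside each list count below. The lists were chosen with earlier results of these data known, so their counts do not measure enrichment. For all genes tested the median log2 fold change was -0.0049. Of 9 tested genes for ligands and their activation, Furin rose, a protease that cuts the TGF-β precursor. It had 132, 103 and 116 CPM with dexamethasone and 230, 182 and 230 CPM with both agents (log2 fold change 0.87 ± 0.18, edgeR adjusted p = 0.0203). Its call was lost without Dex replicate 2 (0.0917) or 3 (0.0785), without TGF-β1 + Dex replicate 1 (0.0758) or 3 (0.0769), and without the low-count filter (0.0999). Tgfb1, the gene of the ligand, did not pass (0.93 ± 0.33, adjusted p = 0.218).

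None of 5 tested receptor genes and none of 4 Smad genes passed, with median log2 fold changes of 0.21 and 0.13. Tgfbr1 and Tgfbr2, the receptor kinases, had log2 fold changes of 0.72 and 0.21, and Smad3, the signal carrier, one of 0.66 ± 0.18 (edgeR adjusted p = 0.0878). Of 12 tested feedback regulators, 2 rose, and the median log2 fold change was 0.33. Skil, a repressor of Smad proteins, had 12.0, 9.85 and 13.7 CPM with dexamethasone and 22.8, 21.7 and 22.3 CPM with both agents (log2 fold change 0.92 ± 0.15, edgeR adjusted p = 0.00412). Ldlrad4, a membrane inhibitor of Smad activation, had 2.16, 2.46 and 2.28 CPM and then 9.18, 7.70 and 8.63 CPM (1.87 ± 0.26, adjusted p = 0.00144). Both genes were separate between the groups. Pmepa1, a related inhibitor, had a log2 fold change of 0.99 ± 0.25 (adjusted p = 0.104), and Smad7, the inhibitory Smad, one of -0.37 ± 0.37 (adjusted p = 0.773), which changed sign to 0.18 without Dex replicate 1.

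Among 15 tested genes that TGF-β is known to induce, 4 rose and 1 fell, with a median log2 fold change of 0.17. Nt5e, the ectoenzyme CD73 that makes adenosine, rose from 2.16, 1.92 and 2.93 CPM to 15.3, 12.6 and 15.4 CPM, a log2 fold change of 2.63 ± 0.26 (edgeR adjusted p = 0.00011). Id1, an inhibitor of helix-loop-helix factors, rose from 4.01, 4.93 and 3.58 CPM to 16.0, 8.04 and 8.63 CPM (1.35 ± 0.31, adjusted p = 0.0397). The call on Id1 was lost in 7 of 12 fits that left out a library, with adjusted p between 0.0529 and 0.144 without Ctrl replicate 1 or 3, any Dex replicate, TGF replicate 2 or TGF-β1 + Dex replicate 1, with limma voom (0.0824) and with the 6 libraries alone (0.0891). Gpr83, a receptor of regulatory T cells, rose by 1.04 ± 0.21 and Cd101, an inhibitory surface protein, by 0.86 ± 0.16 on the log2 scale. Gpr83 lost its call without Dex replicate 1 (0.0803) or 2 (0.106), TGF-β1 + Dex replicate 2 (0.0614) or 3 (0.0883), with DESeq2 (0.0687) and with the 6 libraries alone (0.0616), and Cd101 without Dex replicate 2 (0.0541) or 3 (0.0565) and with DESeq2 (0.0793). Itgae, the integrin CD103, was at 0, 0.821 and 0.650 CPM and then at 1.36, 1.05 and 2.53 CPM, near the level of 3 counts (adjusted p = 0.282).

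Of 11 tested genes that TGF-β is known to repress, Gzmb, Il4 and Gata3 fell and Il18r1, a chain of the interleukin 18 receptor, rose. The median log2 fold change of the list was -0.03, near that of all genes tested. Il4, the type 2 cytokine, had 35.2, 20.8 and 33.2 CPM with dexamethasone and 5.78, 12.9 and 10.7 CPM with both agents (log2 fold change -1.58 ± 0.28, edgeR adjusted p = 0.00734). Gata3, the transcription factor of Th2 cells, had 48.4, 81.5 and 66.0 CPM and then 26.2, 17.1 and 39.8 CPM (-1.20 ± 0.24, adjusted p = 0.0202). Untreated cells had the highest levels of both, 47.4 ± 4.84 CPM of Il4 and 112 ± 6.19 CPM of Gata3 (SD, n = 3). Il18r1 rose from 3.70, 2.74 and 2.93 CPM to 11.6, 8.74 and 12.2 CPM (1.80 ± 0.29, adjusted p = 0.00462). Gata3 lost its call without Dex replicate 2 (0.0909) or 3 (0.0659), TGF-β1 + Dex replicate 1 (0.0814), the low-count filter (0.112) or the other 6 libraries (0.123).

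**Figure D4:**
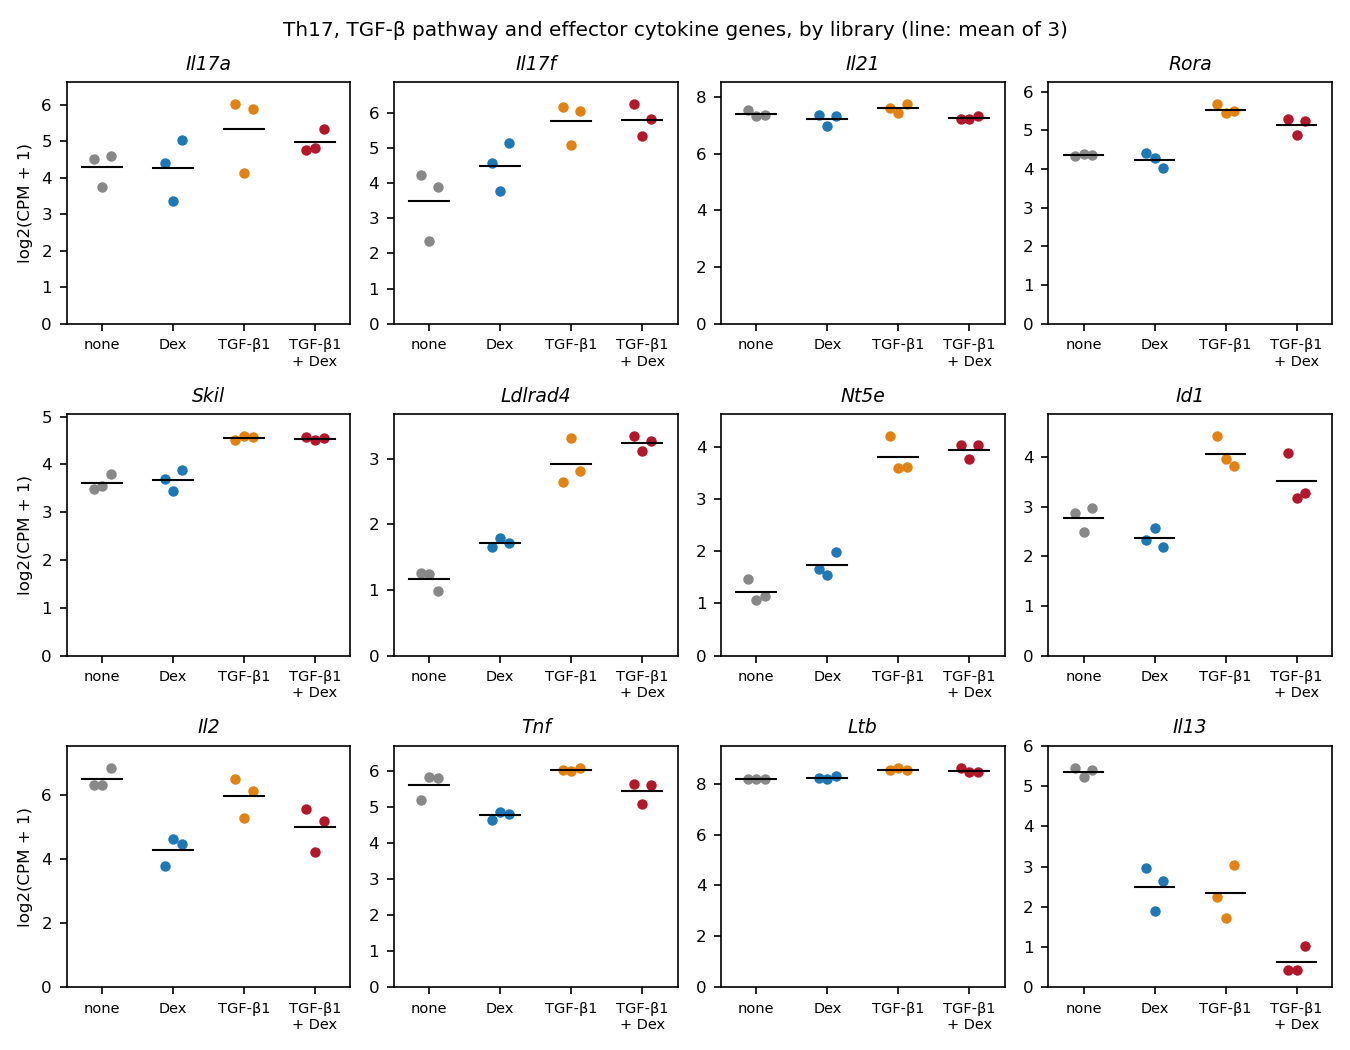
Level, as log2(CPM + 1), of 12 genes of the Th17 program, the TGF-β pathway and the effector cytokines in the 3 libraries of each of 4 groups (points) with the mean of the 3 log2 values (line). Skil, Ldlrad4 and Nt5e are separate between Dex and TGF-β1 + Dex, Il17a, Il21 and Il2 overlap, and Il13 is lowest with both agents.

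The Th17 cytokine genes Il17a, Il17f and Il21 did not pass. Il17a had 20.4, 9.30 and 31.5 CPM with dexamethasone and 26.2, 27.3 and 39.2 CPM with both agents, so the groups overlapped (log2 fold change 0.64 ± 0.50, edgeR adjusted p = 0.697). Il17f, with 22.5, 12.6 and 34.1 CPM and then 74.1, 39.5 and 55.8 CPM, did not overlap, and its 1.31 ± 0.44 had an adjusted p of 0.193, but of 0.00816 with the replicate number as a term. Without dexamethasone Il17f rose by 2.25 ± 0.48 (adjusted p = 0.0263). Il21 lay between 125 and 163 CPM with dexamethasone and between 147 and 158 CPM with both agents.

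Of 11 tested Th17 transcription factors, Rora, Irf4 and Stat3 rose and Batf fell. Rora, a nuclear receptor of the Th17 program, rose by 0.93 ± 0.14 on the log2 scale, from 20.4, 18.6 and 15.3 CPM to 38.1, 28.3 and 37.1 CPM (edgeR adjusted p = 0.00292). Stat3, which carries the interleukin 6 signal, rose by 0.53 ± 0.06 (adjusted p = 0.000308) and Irf4 by 0.37 ± 0.07 (0.00811). Batf, an AP-1 factor needed for Th17 cells, fell from 206, 193 and 211 CPM to 123, 113 and 147 CPM (-0.66 ± 0.10, adjusted p = 0.00329).

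Of 15 tested genes of inflammatory Th17 cells, Gzmb, Il3 and Ccl5 fell and none rose, and the median log2 fold change was -0.48. Of 11 tested genes of homeostatic Th17 cells, Il9, Il1rn and Ccr6 rose and none fell, with a median of 0.64. Il1rn, the antagonist of the interleukin 1 receptor, rose from 4.01, 3.83 and 4.55 CPM to 10.9, 12.2 and 11.4 CPM (1.47 ± 0.25, edgeR adjusted p = 0.00653). Of 13 tested Th1 genes, Il18r1 rose and Il12rb1 and Ccl5 fell, with a median of -0.44, and of 11 tested Th2 and Th9 genes, Il9 rose and Il4, Il13, Gata3 and Ccr8 fell, with a median of -0.76. Of 18 tested effector cytokines, Il9, Lta and Ltb rose and Il3, Il4, Il13 and Tnfsf8 fell. Il13, a type 2 cytokine, had 6.79, 2.74 and 5.20 CPM with dexamethasone and 0.340, 0.350 and 1.05 CPM, near the level of 3 counts, with both agents, against 40.3 ± 3.20 CPM in untreated cells. Its log2 fold change was -2.81 ± 0.57, or -3.67 without TGF-β1 + Dex replicate 3. The edgeR adjusted p was 0.0202, and the call was lost without Dex replicate 1 (0.0723) or 3 (0.0659), TGF-β1 + Dex replicate 1 (0.0814) or 2 (0.0733), and with limma voom (0.265). Tnfsf8, the ligand of CD30, fell by 0.74 ± 0.10 on the log2 scale (adjusted p = 0.00165).

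Il2, the T cell growth factor, had 12.7, 23.8 and 21.1 CPM with dexamethasone and 45.9, 17.8 and 35.2 CPM with both agents, with overlap (log2 fold change 0.78 ± 0.40, edgeR adjusted p = 0.465). Tnf, with 24.1, 27.9 and 27.0 CPM and then 49.0, 33.2 and 47.6 CPM, did not overlap and did not pass (0.72 ± 0.18, adjusted p = 0.0555). It passed with DESeq2 (0.0212), with a mean count filter of 50 (0.0316), without the low-count filter (0.0272), and without Ctrl replicate 1 (0.0179) or TGF-β1 + Dex replicate 2 (0.0222). Of 15 tested regulatory T cell genes, Nt5e, Gpr83, Capg and Izumo1r rose and none fell. Foxp3, the factor that defines these cells, was too low to be tested, at 0.388 CPM with dexamethasone and 1.08 CPM with both agents on average, and so was Il10, at 0.713 and 2.29 CPM.

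Of 15 tested genes that glucocorticoids induce, Ctla2a rose and none fell, and the median log2 fold change was 0.10. Tsc22d3, the glucocorticoid-induced leucine zipper, had 118, 119 and 110 CPM with dexamethasone and 124, 99.0 and 93.3 CPM with both agents, against 47.3 ± 2.50 CPM in untreated cells (log2 fold change -0.14 ± 0.11, edgeR adjusted p = 0.703). Fkbp5, a co-chaperone of the glucocorticoid receptor, had 7.10, 9.85 and 8.13 CPM and then 8.50, 6.30 and 6.32 CPM. None of 13 tested genes of the receptor and its chaperones passed, including Nr3c1, the receptor itself (-0.34 ± 0.33, adjusted p = 0.765).

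Ctla2a encodes an inhibitor of cysteine proteases. Its level was 503, 486 and 430 CPM with dexamethasone and 1309, 1182 and 1052 CPM with both agents, the highest of the 4 groups, against 259 ± 13.6 CPM in untreated cells (log2 fold change 1.32 ± 0.08, edgeR adjusted p = 1.63e-06). It shares sequence with Ctla2b, so reads may have been split between them. The protease inhibitors and matrix genes were the list with the most calls among those described here, 9 of 14 tested, with Timp1, Ctla2a, Ctla2b and Adam19 higher and Serpinb6b, Serpinb9, Serpine2, Cst7 and Adam8 lower. Cst7, cystatin F, fell from 206, 221 and 219 CPM to 92.2, 107 and 107 CPM (-1.07 ± 0.07, adjusted p = 4.45e-06). Serpinb9, the inhibitor of granzyme B, fell from 6.17, 9.58 and 5.53 CPM to 0.680, 1.40 and 0.632 CPM (adjusted p = 0.00144), though close paralogs may share its reads. The members moved in both directions and the median of the list was 0.21.

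Cyp11a1, the enzyme that starts steroid synthesis from cholesterol and that the study deleted in another experiment, had 19.7, 25.4 and 21.1 CPM with dexamethasone and 38.4, 43.7 and 41.3 CPM with both agents. The groups did not overlap, and the log2 fold change was 0.89 ± 0.12 (edgeR adjusted p = 0.00144). Untreated cells had 54.2, 54.0 and 46.0 CPM and cells with TGF-β1 alone 65.0, 62.7 and 57.2 CPM. The Dex libraries were thus the lowest of the 12. Without dexamethasone the change of 0.26 ± 0.11 did not pass (adjusted p = 0.273), and the difference between the responses, 0.63 ± 0.16, did not pass either (adjusted p = 0.740). Tspo, a mitochondrial protein of cholesterol transport, also rose (0.41 ± 0.05, adjusted p = 0.00124), and these were 2 of 4 tested genes of steroid synthesis.

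Receptors and signalling genes moved in both directions. Among 11 tested co-inhibitory receptors, Pdpn and Cd5 rose and Lilrb4a, Tigit and Btla fell. Pdpn, podoplanin, rose from 4.32, 3.28 and 5.53 CPM to 14.6, 18.2 and 11.4 CPM (log2 fold change 1.74 ± 0.25, edgeR adjusted p = 0.00177). Among 10 tested chemokine receptors, Ccr6 and Ccr7 rose and Ccr8, a receptor of Th2 and regulatory T cells, fell from 98.1, 85.4 and 81.3 CPM to 49.0, 49.0 and 57.3 CPM (-0.76 ± 0.14, adjusted p = 0.00810). Ccr7, the receptor for homing to lymph nodes, rose by 0.65 ± 0.05, from 674, 670 and 622 CPM to 1026, 1017 and 1052 CPM (adjusted p = 8.19e-06). Among 16 tested cytokine receptors, Il18r1 rose and Il10ra and Il12rb1 fell, with Il10ra, a chain of the interleukin 10 receptor, moving from 61.1, 58.6 and 57.9 CPM to 28.2, 30.8 and 33.3 CPM. The calls on Cd5 (adjusted p = 0.0492) and Il12rb1 (0.0458) were lost without any 1 of the 12 libraries, except that Cd5 kept its call without Ctrl replicate 2, with adjusted p-values of up to 0.189 and 0.185.

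Among 16 tested Stat, Socs and Pim genes, Stat3, Stat5a and Socs3 rose and none fell. Socs3, the feedback inhibitor of interleukin 6 signalling, had 124, 106 and 90.7 CPM and then 182, 163 and 190 CPM (log2 fold change 0.74 ± 0.10, edgeR adjusted p = 0.00153). Stat5a, the carrier of the interleukin 2 signal, lost its call without Dex replicate 2 (0.0779) or 3 (0.0507), TGF-β1 + Dex replicate 1 (0.0634) or 3 (0.0810), and with the 6 libraries alone (0.0565). Among 16 tested AP-1, Nr4a and Egr factors, Nr4a3 and Jun rose and Batf fell, and Jun, a subunit of AP-1, went from 8.33, 9.85 and 7.15 CPM to 18.7, 16.8 and 18.7 CPM (1.09 ± 0.15, adjusted p = 0.00144). None of 24 proliferation genes, 21 glycolysis and hypoxia genes and 22 cholesterol genes passed, and their median log2 fold changes were -0.03, 0.05 and 0.14. Of 12 tested interferon response genes, Ifi27l2a fell and none rose, and the median log2 fold change was -0.45.

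Adhesion, survival and cell cycle genes gave single calls. Among 15 tested integrin and adhesion genes, Itgb2, the β chain of LFA-1, rose from 210, 192 and 185 CPM to 291, 303 and 284 CPM (log2 fold change 0.58 ± 0.06, edgeR adjusted p = 0.000163), Icam1, its ligand, rose by 0.47 ± 0.09, and Itgb3 was among the genes that fell. Itgb3, the integrin β3 chain, had 5.25, 7.11 and 5.53 CPM and then 1.70, 1.75 and 1.90 CPM (-1.72 ± 0.27, adjusted p = 0.00311). Among 13 tested genes of stem-like and memory T cells, Ccr7 and Bach2, a repressor of effector programs, rose. Among 16 tested NF-kB genes, Icam1 and Nfkb2, a subunit of the pathway, rose, with Nfkb2 at 0.58 ± 0.07 (adjusted p = 0.00102). Among 16 tested apoptosis genes, the survival gene Bcl2l1 rose by 0.37 ± 0.09 (edgeR adjusted p = 0.0457). Ccnd2, which encodes cyclin D2, rose by 0.43 ± 0.09 as 1 of 9 tested cell cycle inhibitors and D cyclins, and Tnfrsf8, which encodes CD30, fell by 0.42 ± 0.10 as 1 of 12 co-stimulatory receptors. Of 15 T cell markers, Lat and Cd5 rose and Ptprc fell.

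Several of these calls were lost when a library was left out. Icam1 lost it without Dex replicate 2 or 3 or TGF-β1 + Dex replicate 1 or 3, with edgeR adjusted p between 0.0693 and 0.0819, and Ccnd2 without the same 4 libraries, between 0.0554 and 0.0803. Bach2 lost it without Dex replicate 2 or 3 or any TGF-β1 + Dex replicate (0.0583 to 0.136). Bcl2l1 lost it without Ctrl replicate 2, TGF replicate 1 or 3, any Dex replicate or TGF-β1 + Dex replicate 2 or 3 (0.0525 to 0.187), and Tnfrsf8 without any library but TGF-β1 + Dex replicate 3 (0.0635 to 0.154). Ptprc lost it without TGF-β1 + Dex replicate 1 (0.0507). Among the protease inhibitors and matrix genes, Adam19 lost its call without Dex replicate 2 (0.0707) or TGF-β1 + Dex replicate 3 (0.0743). Ctla2b lost it without any Dex or TGF-β1 + Dex replicate, Ctrl replicate 3 or TGF replicate 3 (0.0648 to 0.182). Adam8 lost it without any Dex or TGF-β1 + Dex replicate or TGF replicate 3 (0.0524 to 0.124). Serpine2 lost it without any library but TGF replicate 1 and TGF-β1 + Dex replicate 3 (0.0547 to 0.145), and without the latter its log2 fold change moved from -1.40 to -2.16. Ifi27l2a, the interferon response gene that fell, lost it without Ctrl replicate 2 or 3, TGF replicate 2 or 3, Dex replicate 2 or 3, or TGF-β1 + Dex replicate 1 or 3 (0.0534 to 0.160). Other settings ended some of the same calls. Without the low-count filter the adjusted p was 0.112 for Adam8, 0.0501 for Bcl2l1, 0.128 for Cd5, 0.214 for Ctla2b, 0.182 for Il12rb1, 0.215 for Serpine2 and 0.0657 for Tnfrsf8. With the 6 libraries alone it was between 0.0565 and 0.159 for Adam19, Adam8, Bach2, Bcl2l1, Cd5, Icam1, Ifi27l2a, Il12rb1, Serpine2 and Tnfrsf8. DESeq2 gave 0.251 for Adam8, 0.132 for Il12rb1 and 0.0600 for Tnfrsf8, and limma voom 0.0542 for Bcl2l1, 0.0619 for Cd5 and 0.0578 for Il12rb1. With the replicate number as a term Adam8 (0.0539), Tnfrsf8 (0.0691) and Ctla2b, which stood at the threshold, did not pass. Of 74 called genes that were followed in this way, 49 kept their call in all 12 fits.

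**Figure D5:**
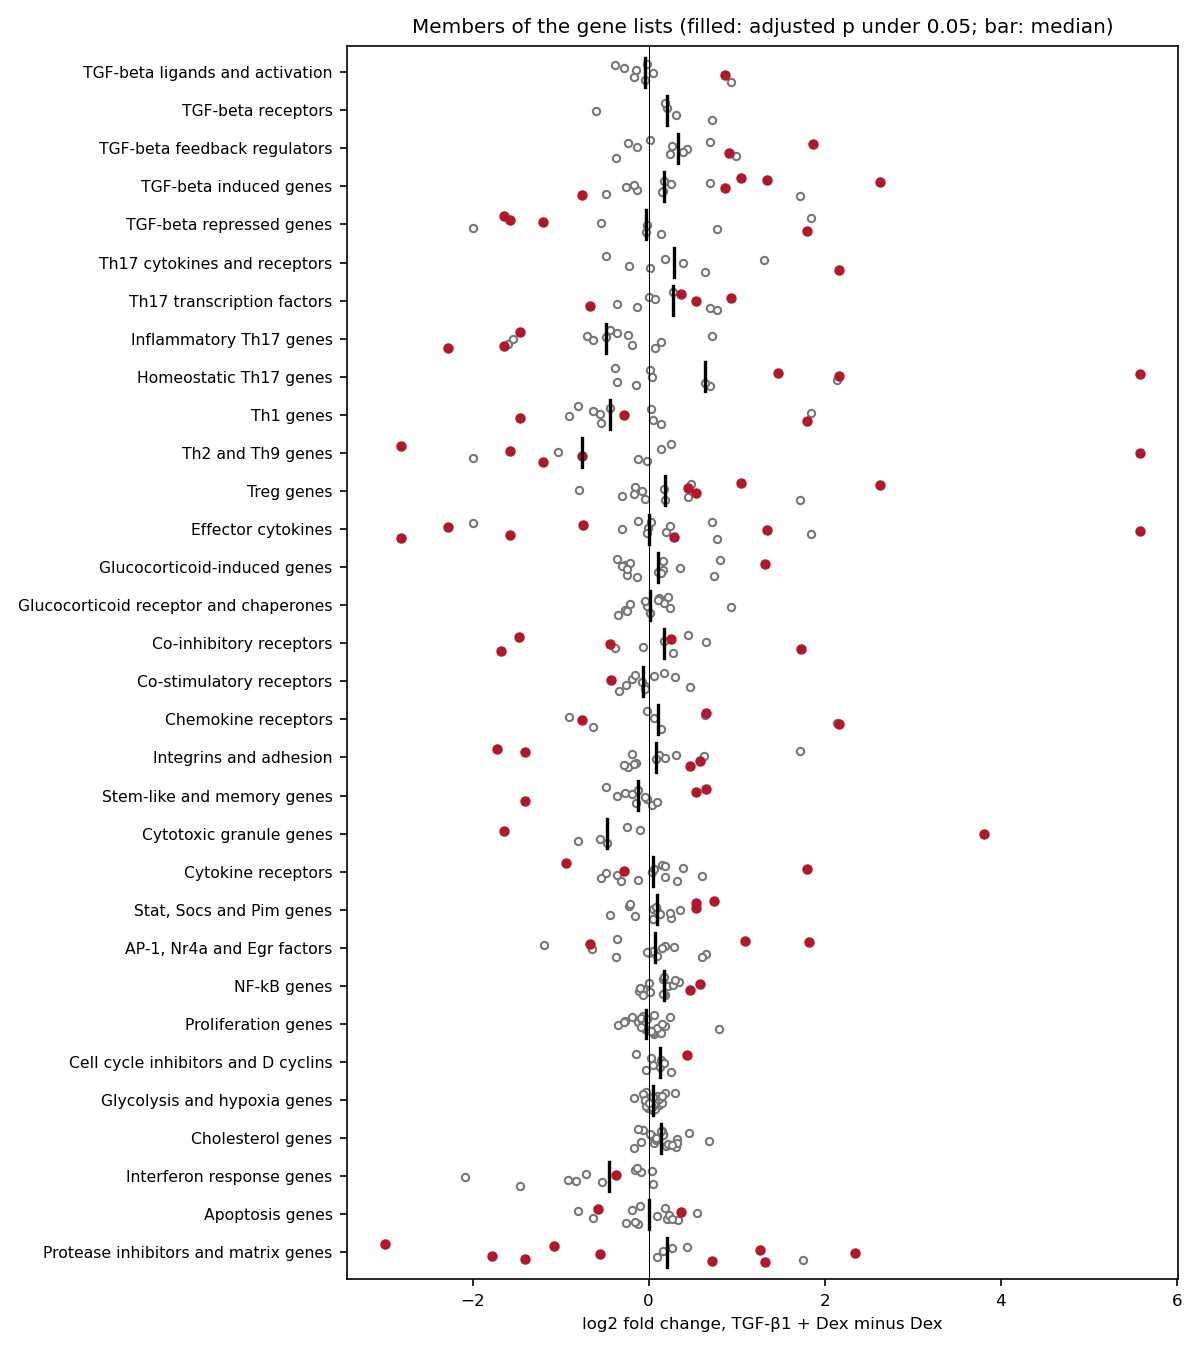
Log2 fold change of TGF-β1 + Dex against Dex (x axis) for each tested member (points) of 32 gene lists, with members that passed filled and the median of each list as a bar. The homeostatic Th17 list has the highest median, 0.64, and the Th2 and Th9 list the lowest, -0.76, and no proliferation gene is filled.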

How the data were processed

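Polyadenylated RNA of sorted cells was sequenced as paired ends after SMART-Seq2 amplification and Nextera XT tagging, per the labels' protocols. The method keeps no strand, so a gene and its antisense partner cannot be told apart. The deposited values are counts per gene for 31053 symbols, all whole numbers. RSEM 1.3.3 and the build mm10 are named per the submitters' processing notes, with no role stated, and whether the authors rounded estimated counts is not given in the sources used here. All 12 columns of the in vitro table matched a library by label, and the other tables of the series were not used here. Positions of 30416 symbols came from GENCODE M21 on GRCm38.

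In R 4.3.3, edgeR 4.0.16 kept 10332 genes by filterByExpr, scaled libraries by TMM and fitted the 4 groups in 1 robust quasi-likelihood model; genes passed at a Benjamini-Hochberg adjusted p under 0.05. The contrasts were both agents against dexamethasone, TGF-β1 against untreated, and their difference. CPM are edgeR's counts scaled to the library size times its TMM factor. The SE is the log2 fold change divided by the square root of F. Floors of 3 counts cover counting error only. Replicates of a group differed by more than counting error, with chi-square statistics per degree of freedom of 2.79 to 52.4 over genes with at least 20 counts.

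Up to 12 named genes were taken in each direction by size of log2 fold change, out of those that passed and whose mean log2 CPM reached 4. Predicted genes, Rik clones, variable segments of receptors and pseudogenes were not considered. List members and genes that passed for the difference between the responses were named as well. The members and lists were chosen with earlier results of these data known. Of 521 list symbols 518 stood in the table, and the 3 others were Il26 and the older names Folr4 and Gilz. Alternatives were 2 other scalings, 2 low-count filters, DESeq2 1.42.0, limma voom 3.58.1, the replicate number as a term, the compared groups alone, no abundant predicted genes, and each library left out. Results of some named genes and list members are not reported here.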

Additional observations from a re-analysis of the deposited data

Results flagged for a closer look

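Cd74, which encodes the invariant chain of MHC class II, was singled out because its libraries moved in opposite directions in the 2 settings. With dexamethasone it had 25.6, 23.3 and 27.3 CPM, and 35.4, 30.4 and 31.2 CPM after TGF-β1 was added, so every library was higher (log2 fold change 0.35 ± 0.12, edgeR adjusted p = 0.185). Without dexamethasone it had 27.3, 28.9 and 32.1 CPM in untreated cells and 25.3, 22.5 and 26.3 CPM with TGF-β1, so every library was lower (-0.26 ± 0.12, edgeR adjusted p = 0.337). The difference between the responses was 0.61 ± 0.17 on the log2 scale and did not pass (edgeR adjusted p = 0.740).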

How the results depend on the processing

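The number of genes called with TGF-β1 added to dexamethasone, 271, lay between 152 and 266 when 1 library was left out, 239 with DESeq2, 232 with limma voom and 185 with the 6 libraries alone (162 of them shared with the 271). None of the 271 changed sign under any alternative that tested it. With the replicate block 280 genes were called, 237 of them among the 271. The correlations of same-numbered Dex and TGF-β1 + Dex libraries, after group means were removed, were 0.0732, 0.0217 and 0.0237. Differently numbered libraries were not set beside them, so these values cannot decide whether the numbers pair the libraries. The main fit did not pair them, and the labels do not say what the numbers stand for. The call on Il17f appeared with the block. For TGF-β1 against untreated cells, 340 calls became 219 to 326 without 1 library. The difference between the responses, with 0 calls, gave 4 without the low-count filter, 6 with DESeq2, 2 with the replicate block (Il9 and Gm10337) and 0 to 1 without 1 library, where Nup160 passed without Dex replicate 2 and B230118H07Rik without TGF-β1 + Dex replicate 2. Il21 and Smad7, which did not pass, changed sign without 1 library, and Il21 ranged from -0.092 to 0.096 and Smad7 from -0.69 to 0.18. The causes were not tested. Depth limited genes near the level of 3 counts, such as Itgae and Il13, and 3 libraries per group limited the precision.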
